A study of Mus musculus with 12 samples.

Results

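Mural cells wrap the vessels of the brain, and the 10 genes described here mark their main kinds. *Acta2*, *Tagln*, *Myh11* and *Cnn1* encode contractile proteins of vascular smooth muscle, which rings arteries and arterioles and sets their width. *Rgs5*, *Pdgfrb*, *Abcc9*, *Vtn*, *Higd1b* and *Anpep* are used as markers of pericytes, the mural cells of capillaries, which are held in place by PDGF-B from the endothelium and help to maintain the blood-brain barrier. The 10 genes were taken as a fixed list out of 55421 genes counted, and each of them was among the 22592 genes with more than 20 counts over the 12 libraries, which were the genes tested. In the GENCODE M21 annotation of GRCm38, all 10 are protein-coding, and reads were counted over their exons. The smooth muscle genes lie at chr19:34241090-34255590 (*Acta2*, minus strand), chr9:45929619-45936058 (*Tagln*, minus), chr16:14194535-14291372 (*Myh11*, minus) and chr9:22099216-22109630 (*Cnn1*, plus). The pericyte genes lie at chr1:169655501-169695813 (*Rgs5*, plus), chr18:61045150-61085061 (*Pdgfrb*, plus), chr6:142587862-142702315 (*Abcc9*, minus), chr11:78499091-78502324 (*Vtn*, plus), chr11:102835849-102838040 (*Higd1b*, plus) and chr7:79821803-79861059 (*Anpep*, minus).

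Whole hippocampus was studied in mice that were wild type (WT) or carried a knockout of *Fmr1* (KO). *Fmr1* encodes the RNA-binding protein FMRP and is silenced in fragile X syndrome. The *Fmr1* knockout was constitutive, so that vascular cells carried it too. Mice of both genotypes received vehicle (Veh) or Nutlin-3 (Nut3), a small molecule that blocks the binding of MDM2 to p53, by intraperitoneal injection at 2 months of age, and the hippocampus was collected at 6 months. All mice had a C57B/L6 background, and the methods describe a *Nestin*-GFP transgene in the mice used for neurogenesis without saying whether the sequenced mice carried it. The vehicle groups (WT-Veh, KO-Veh) and the Nutlin-3 groups (WT-Nut3, KO-Nut3) held 3 libraries each, every one named by its RH number, and the spread given is that between libraries. Counts of reads on genes ranged from 17150820 in WT-Veh RH2 to 20040482 in WT-Nut3 RH9, and levels are given as CPM, the counts relative to the TMM-normalized library size.

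The labels were checked first. *Fmr1* was counted at 74.0 to 79.5 CPM in the 6 WT libraries and at 28.5 to 37.3 CPM in the 6 KO libraries, and KO-Veh against WT-Veh gave a log2 fold change of -1.18 ± 0.07 (SE; edgeR quasi-likelihood test, adjusted *P* = 1.76e-06). Which part of *Fmr1* the reads that remained in KO libraries cover was not tested. Of 6 markers of hippocampal neurons, none was at 0 in any library. Some libraries stood apart in markers of other cell types. The summed level of 12 choroid plexus markers reached 4783 CPM in WT-Nut3 RH9, while KO-Nut3 RH13 had 5130, RH6 3573 and RH8 386 CPM, against at most 53.3 CPM in any of the other libraries, and in those 4 libraries most of it was *Ttr*, the transthyretin gene. The summed level of 12 markers of meningeal and stromal fibroblasts peaked at 266 CPM (KO-Nut3 RH8), then 208 (WT-Veh RH5) and 136 (KO-Nut3 RH6), and lay between 65.6 and 114 CPM in the remaining libraries. Several fold changes are therefore also given without one or more of these libraries.

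Per kilobase of exon, the pericyte genes *Vtn* and *Rgs5* were the most abundant of the 10. *Vtn*, which encodes the secreted adhesion protein vitronectin, had a mean level of 28.8 ± 7.31 CPM per kb (SD, n = 12), and *Rgs5*, a regulator of G protein signalling, had 20.4 ± 1.64. *Vtn* was above *Rgs5* in 12 of 12 libraries, although their ranges overlapped. *Acta2*, the smooth muscle actin, followed at 5.24 ± 2.82 CPM per kb and did not differ beyond its spread from *Pdgfrb*, the receptor for PDGF-B, at 4.79 ± 0.77, with *Acta2* the higher in 5 of 12 libraries. *Higd1b*, *Myh11*, *Abcc9* and *Anpep* had means of 2.33, 1.67, 1.09 and 0.914 CPM per kb, and the ranges of neighbours in this order overlapped. *Cnn1*, the gene of the actin-binding protein calponin, had 0.244 ± 0.182 CPM per kb. *Rgs5* lay above *Acta2*, and *Pdgfrb* above *Higd1b*, without overlap.

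*Tagln*, which encodes transgelin, was almost invisible in the counts used. It was counted at 0 to 7 reads in a library. Of its 1988 exon bases in the GENCODE M21 annotation, 1349 (67.9%) also belong to genes on the opposite strand, *Pcsk7* and *Gm48529*, and reads in exons of more than 1 gene are not assigned when strand is ignored. Where its reads lie along the exons was not tested. When the reads of each gene were instead counted on one strand at a time and the 2 counts were summed, *Tagln* had 84 to 295 reads. The libraries carried no strand information, with 50.1% to 50.4% of single-strand counts on the first strand, so reads from the opposite genes can be among them. The summed counts of *Tagln* were highest in KO-Nut3 RH8 (295), WT-Veh RH5 (279) and WT-Nut3 RH9 (266), and the next was 154 in WT-Veh RH15, whereas *Pcsk7* was level, at 31.9 to 37.1 CPM by the same count. The 3 libraries with the most *Tagln* were also those with the most *Acta2*. Of the other genes, only *Abcc9* shared exon bases, 1.89% of them.

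**Figure D1:**
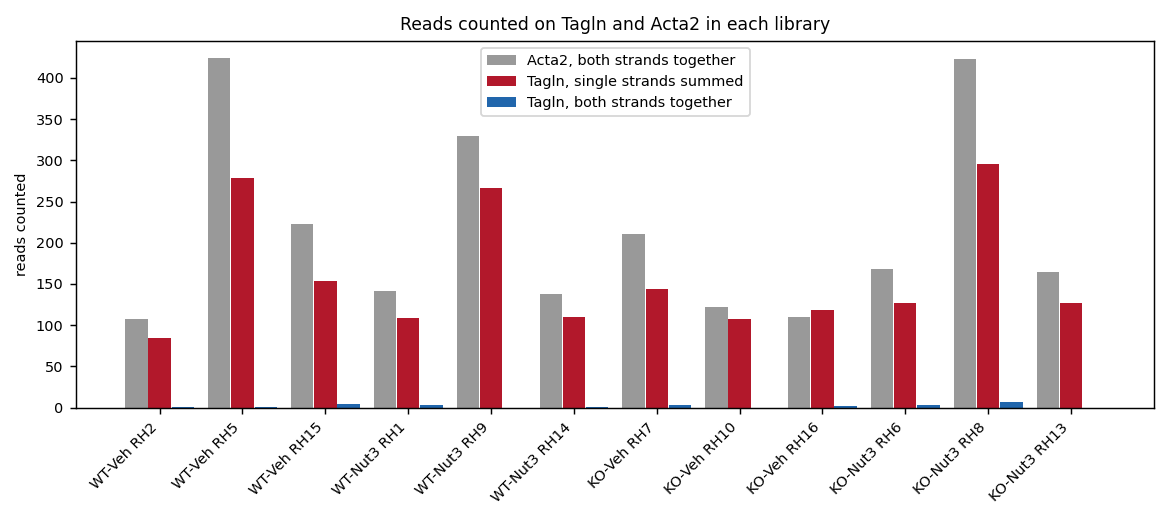
Reads counted (y axis) on *Acta2* and *Tagln* in each of the 12 libraries (x axis); grey bars are *Acta2* over both strands, red bars *Tagln* with its single-strand counts summed, blue bars *Tagln* over both strands. The red bars are tallest in WT-Veh RH5, WT-Nut3 RH9 and KO-Nut3 RH8, as the grey ones are, and the blue bars do not exceed 7 reads.

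*Acta2*, *Myh11* and *Cnn1* differed most between libraries of the same group in WT-Veh and KO-Nut3. *Acta2* was at 6.39, 22.3 and 11.5 CPM in WT-Veh RH2, RH5 and RH15, 7.20, 16.4 and 7.74 in WT-Nut3 RH1, RH9 and RH14, 10.9, 6.88 and 6.27 in KO-Veh RH7, RH10 and RH16, and 9.32, 24.2 and 9.01 in KO-Nut3 RH6, RH8 and RH13. A single library was high in WT-Veh, in WT-Nut3 and in KO-Nut3, none in KO-Veh, and all groups overlapped. *Myh11*, the smooth muscle myosin heavy chain, had the same high libraries, at 7.35, 24.4 and 10.2 CPM (WT-Veh), 11.1, 16.3 and 10.7 (WT-Nut3), 12.9, 8.57 and 5.70 (KO-Veh), with 10.04, 24.2 and 11.1 CPM in KO-Nut3, in the same order of libraries. *Cnn1* was at 0.657, 1.79 and 0.309 CPM (WT-Veh), 0.558, 0.894 and 0.561 (WT-Nut3), 0.413, 0.226 and 0.114 (KO-Veh), with 0.333, 1.43 and 0.714 (KO-Nut3), again highest in WT-Veh RH5 and KO-Nut3 RH8. Its 2 to 34 reads per library allow only large differences to be seen. Fewer smooth muscle cells in a sample and less RNA per cell cannot be told apart in bulk tissue.

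**Figure D2:**
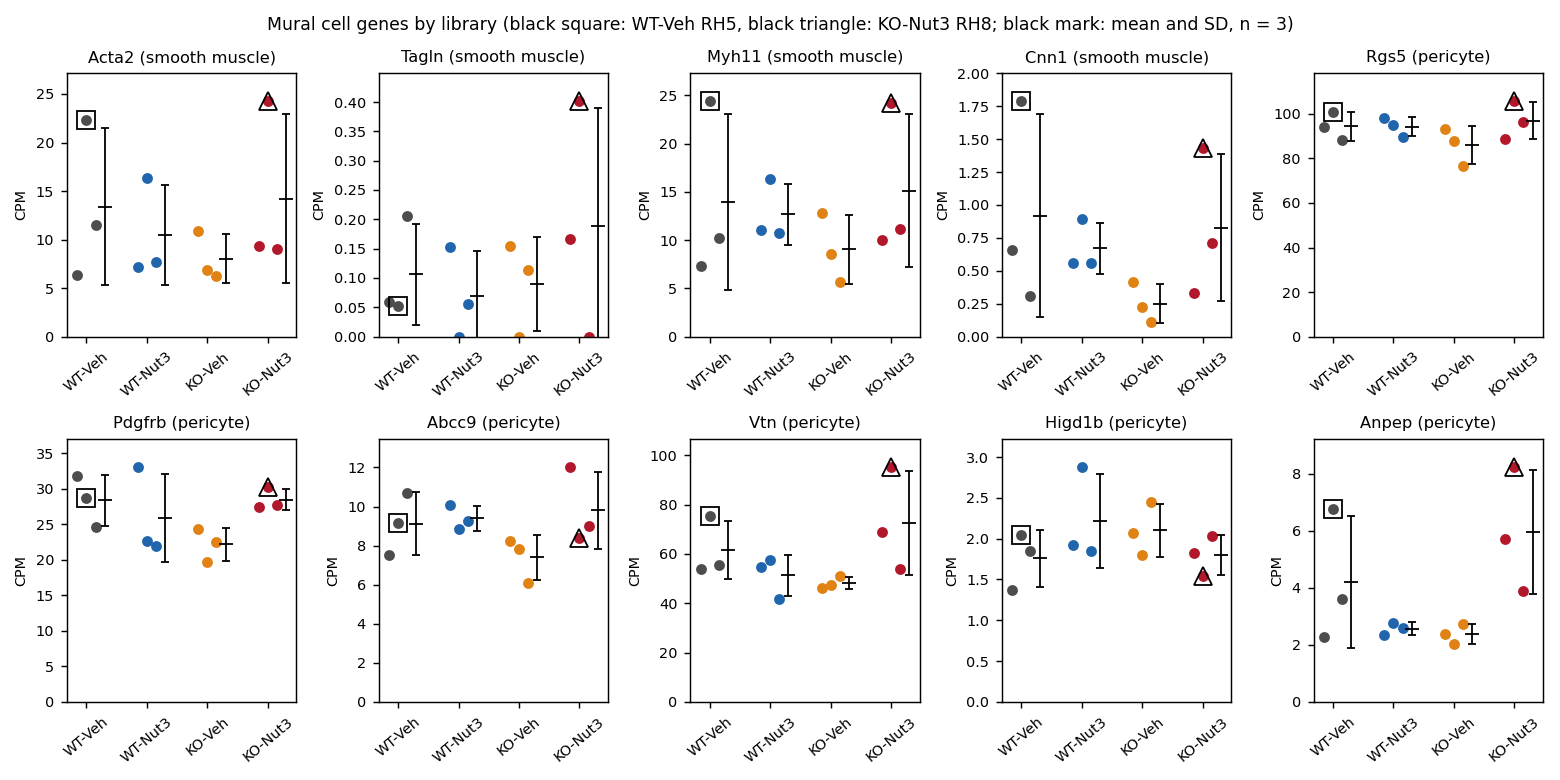
Level in CPM (y axis, from 0) of each of the 10 genes in the 3 libraries of each group (x axis); points are libraries, the black mark and bar are the mean and SD, the open square is WT-Veh RH5 and the open triangle KO-Nut3 RH8. *Acta2*, *Myh11*, *Cnn1*, *Vtn*, *Anpep* and *Rgs5* are highest in those 2 libraries. *Rgs5*, *Pdgfrb*, *Abcc9* and *Higd1b* vary less than 2.1-fold over all 12.

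The pericyte genes ranged from the steady *Rgs5* to the variable *Anpep*. *Rgs5* ranged from 76.7 to 106 CPM over the 12 libraries, a ratio of 1.38 between highest and lowest, with means of 94.4 ± 6.42 and 86.0 ± 8.46 CPM in WT-Veh and KO-Veh, and 94.3 ± 4.39 and 96.9 ± 8.35 CPM in WT-Nut3 and KO-Nut3 (SD, n = 3). *Pdgfrb* ranged from 19.7 to 33.1 CPM, *Abcc9*, a subunit of ATP-sensitive potassium channels, from 6.10 to 12.03 CPM, and *Higd1b*, which encodes a small mitochondrial protein, from 1.37 to 2.88 CPM. Their ratios of highest to lowest were 1.68, 1.97 and 2.10, against 2.28 for *Vtn* and 4.06 for *Anpep*. *Vtn* was at 53.9, 75.3 and 55.6 CPM (WT-Veh), 54.6, 57.6 and 41.8 (WT-Nut3), 46.4, 47.4 and 51.0 (KO-Veh), with 68.9, 95.4 and 53.7 (KO-Nut3). *Anpep*, the gene of the surface peptidase CD13, was at 2.27, 6.78 and 3.61 CPM (WT-Veh), 2.33, 2.78 and 2.58 (WT-Nut3), 2.37, 2.03 and 2.73 (KO-Veh), with 5.71, 8.25 and 3.90 (KO-Nut3). Both were highest in KO-Nut3 RH8, then in WT-Veh RH5, then in KO-Nut3 RH6.

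Smooth muscle genes had the wider spread, apart from *Anpep*. On the log2 scale the SD over the 12 libraries was 0.68 for *Acta2*, 0.62 for *Myh11* and 0.98 for *Cnn1*, against 0.12 for *Rgs5*, 0.23 for *Pdgfrb*, 0.25 for *Abcc9* and 0.27 for *Higd1b*, with *Vtn* at 0.33 and *Anpep* at 0.67. Counting error alone would give an SD of 0.10 for *Acta2* and 0.24 for *Higd1b*, so the spread of *Higd1b*, with 23 to 58 reads, was close to counting error. Among genes within 2-fold of the same mean level, 98.2% varied less than *Acta2*, 98.2% less than *Myh11*, 93.0% less than *Cnn1*, 98.9% less than *Vtn*, 95.0% less than *Anpep* and 91.6% less than *Pdgfrb*. The share was 76.5% for both *Rgs5* and *Abcc9* and 20.8% for *Higd1b*. The mean log2 level of *Acta2*, *Myh11* and *Cnn1* spanned 2.45 log2 units between the lowest library, KO-Veh RH16, and the highest, WT-Veh RH5, and that of the 6 pericyte genes spanned 0.63 between KO-Veh RH10 and KO-Nut3 RH8. The gap between both means, smooth muscle less pericyte, was -1.61 ± 0.69 (WT-Veh), -1.63 ± 0.40 (WT-Nut3), -2.21 ± 0.55 (KO-Veh), with -1.68 ± 0.72 log2 units (KO-Nut3; SD, n = 3), and the groups overlapped.

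**Figure D3:**
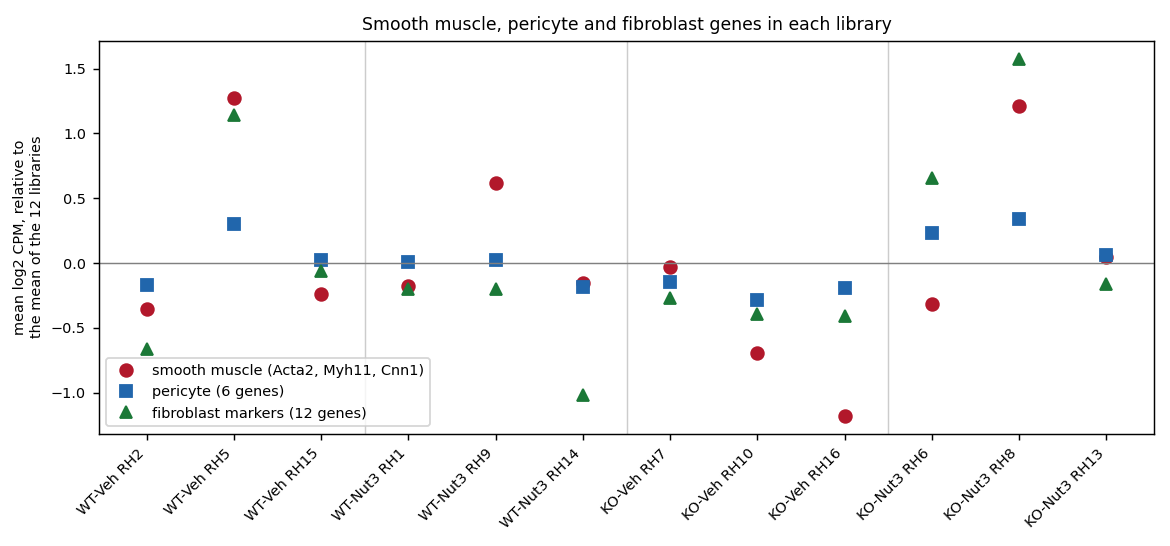
Mean log2 CPM of 3 smooth muscle genes (red circles), 6 pericyte genes (blue squares) and 12 fibroblast markers (green triangles) in each library (x axis), each relative to its own mean over the 12 libraries (y axis, log2 units); vertical lines part the groups. Red and green points are both high in WT-Veh RH5 and KO-Nut3 RH8, and only the red is high in WT-Nut3 RH9. The blue points are also highest in WT-Veh RH5 and KO-Nut3 RH8 but stay within 0.63 log2 units.

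Smooth muscle contractile genes are known targets of the serum response factor SRF, which binds the CArG box with myocardin or related cofactors. RefSeq promoter windows (build GRCm38.p6, 250 bases before to 50 after the start site) were at hand for *Acta2*, *Cnn1*, *Rgs5*, *Abcc9*, *Vtn* and *Anpep*, so that *Tagln*, *Myh11*, *Pdgfrb* and *Higd1b* were not searched. None of the 6 windows held a full CArG box (CCNNNNNNGG with A or T at each N), against 1.63% of 32851 windows. With 1 C or G allowed among those inner bases, a pattern that holds the full box and reads alike on both strands, *Acta2* was the 1 of 6 with a match, against 9.98% of all windows. Its stretch is shown with those of *Myl9*, a myosin light chain gene of smooth muscle, and of *Srf* itself, both chosen after the search for their matches. Capitals mark the matches, 2 in each stretch, the last of which begins 34 bases before the start site in *Acta2*, 99 in *Myl9* and 62 in *Srf*. The stretches are chr19:34255378-34255477 on the minus strand, chr2:156775283-156775394 on the plus strand and chr17:46556195-46556264 on the minus strand. That of *Acta2* lies inside the gene span given above from GENCODE M21, which begins further upstream than the RefSeq start site used here.
Acta2: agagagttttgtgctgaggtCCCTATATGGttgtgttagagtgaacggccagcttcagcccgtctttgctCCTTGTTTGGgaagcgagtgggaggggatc
Myl9: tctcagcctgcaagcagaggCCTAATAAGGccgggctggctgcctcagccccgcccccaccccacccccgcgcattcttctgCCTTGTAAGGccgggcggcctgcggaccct
Srf: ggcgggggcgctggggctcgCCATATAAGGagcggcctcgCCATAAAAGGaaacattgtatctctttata

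A match is a description of the letters and not a bound site. *Myl9* was highest in the same libraries as *Acta2*, at 18.1 and 13.4 CPM in KO-Nut3 RH8 and WT-Veh RH5 against 6.81 to 10.6 CPM elsewhere. *Srf* was level, at 58.5 to 69.9 CPM. *Myocd*, the gene of myocardin, was at 0.0507 to 0.420 CPM, too low to compare.

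Nutlin-3 in KO mice was the comparison with the most calls in the whole table, 45 of 22592 genes (0.199%), and none of the 10 mural genes was among them. All 4 smooth muscle genes had positive values for KO-Nut3 against KO-Veh, with log2 fold changes of 0.82 ± 0.37 for *Acta2*, 0.74 ± 0.36 for *Myh11*, 1.67 ± 0.65 for *Cnn1* and 0.99 ± 1.15 for *Tagln* (SE; edgeR, adjusted *P* of 0.579 to 0.865). With its single-strand counts *Tagln* stood at 0.61 ± 0.32. They leaned on one library, since without KO-Nut3 RH8 the values were 0.18 for *Acta2*, 0.22 for *Myh11*, 1.02 for *Cnn1* and -0.13 for *Tagln*. Of the pericyte genes, *Anpep* had the largest change, 1.32 ± 0.28 (unadjusted *P* = 0.000926, edgeR adjusted *P* = 0.141), followed by *Vtn* at 0.59 ± 0.17, *Abcc9* at 0.40 ± 0.18, *Pdgfrb* at 0.36 ± 0.10 and *Rgs5* at 0.17 ± 0.09, while *Higd1b* stood at -0.23 ± 0.25. With each library left out in turn, *Abcc9* was lowest at 0.23, without KO-Nut3 RH6, *Rgs5* at 0.096, without KO-Veh RH16, and *Higd1b* ranged from -0.32 to -0.10. The median over the 10 genes was 0.66, against 0.0034 over all genes tested, but it was 0.26 without KO-Nut3 RH8, 0.40 with the libraries up to RH8 and from RH9 as a block, and 0.11 with the mean level of the fibroblast markers as a term. Those markers moved in the same direction, 11 of 12 with higher values and a median of 1.37. Of the mural genes, 4 of the 10 (*Cnn1*, *Pdgfrb*, *Vtn*, *Anpep*) had an unadjusted *P* under 0.05, against 7.6% of all genes.

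Of the 10 genes, 4 pericyte genes separated the KO groups completely, and whether the 2 classes differ in this was not tested. The smooth muscle gene *Myl9*, outside the list, did so too (8.95 to 18.1 CPM in KO-Nut3, 7.69 to 8.34 in KO-Veh). All KO-Nut3 libraries exceeded all KO-Veh libraries for *Pdgfrb*, *Abcc9*, *Vtn* and *Anpep*, 4 of the 10 genes, against 7.85% of all genes in that direction and 5.44% in the other, in which no mural gene stood. DESeq2, the tool of the study, called 244 genes (1.08%) on the same libraries and included *Anpep* (adjusted *P* = 0.00366) and *Vtn* (adjusted *P* = 0.0298), the pair that also followed the fibroblast markers. Both calls use the study's tool and libraries, and *Vtn* is also on the study's own lists, so neither direction is independent evidence. Without KO-Nut3 RH8 the edgeR change of *Anpep* was 1.01 and that of *Vtn* 0.34, neither past the threshold. Leaving out WT-Nut3 RH9, KO-Nut3 RH6 and KO-Nut3 RH13, the libraries with the most *Ttr*, left KO-Nut3 RH8 alone in its group, and *Acta2*, *Myh11*, *Vtn* and *Anpep* then passed in edgeR (adjusted *P* of 0.000122 to 0.0416), on the assumption that the lone library varies like the others.

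**Figure D4:**
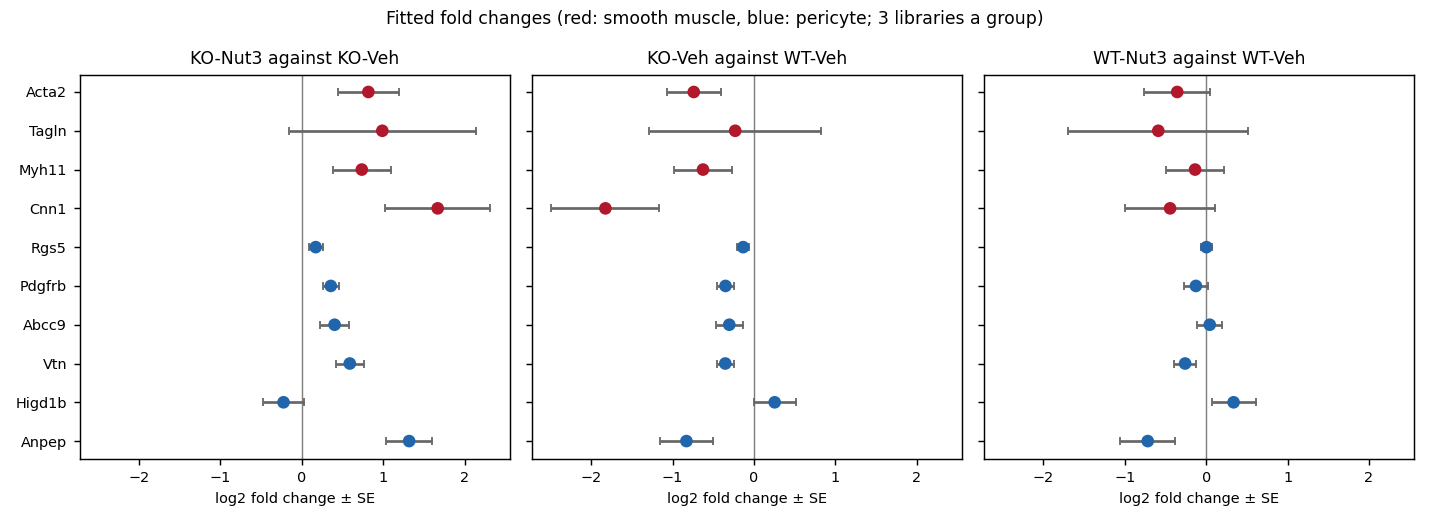
Fitted log2 fold changes (x axis) of the 10 genes (y axis) in 3 comparisons of 3 libraries against 3; red points are smooth muscle genes, blue points pericyte genes, bars are ± 1 SE. The values for KO-Nut3 against KO-Veh are mostly above 0 and those for KO-Veh against WT-Veh mostly below 0, which share the KO-Veh libraries, and no gene passed the threshold in edgeR.

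In vehicle-treated mice, 9 of the 10 genes had lower means in KO than in WT and none passed, against 4 genes called in the table (0.0177%). An unadjusted *P* under 0.05 was found for 5 of the 10 (*Acta2*, *Cnn1*, *Pdgfrb*, *Vtn*, *Anpep*), against 7.2% of all genes. The log2 fold changes were -0.74 ± 0.33 for *Acta2*, -0.63 ± 0.36 for *Myh11*, -1.83 ± 0.66 for *Cnn1* and -0.23 ± 1.06 for *Tagln*. They were -0.83 ± 0.32 for *Anpep*, -0.35 ± 0.10 for *Vtn*, -0.35 ± 0.11 for *Pdgfrb*, -0.30 ± 0.17 for *Abcc9*, -0.13 ± 0.07 for *Rgs5* and 0.25 ± 0.26 for *Higd1b* (edgeR, adjusted *P* of 0.608 to 0.980). *Tagln* by single strands stood at -0.45 ± 0.28. Every KO-Veh library was below every WT-Veh library for *Pdgfrb* and *Vtn*, against 6.46% of all genes, and no mural gene was above throughout, against 5.9%. The values of 5 genes leaned on WT-Veh RH5, for without it *Acta2* stood at -0.16, *Myh11* at 0.04 and *Cnn1* at -0.89, and *Anpep* at -0.31 and *Vtn* at -0.19, whereas *Pdgfrb* kept -0.44 to -0.26 whichever library was left out. *Rgs5* was at -0.05 without KO-Veh RH16, *Abcc9* at -0.17 without WT-Veh RH15 and *Higd1b* at 0.11 without WT-Veh RH2, and *Tagln* ran from -0.84 without KO-Veh RH7 to 0.65 without WT-Veh RH15. Of the 12 fibroblast markers 11 had lower values in KO-Veh too, with a median of -0.59 log2 units and 4 at an unadjusted *P* under 0.05 in edgeR. Their mean log2 level was 1.97, 3.78 and 2.57 in WT-Veh RH2, RH5 and RH15. In KO-Veh it was 2.23 to 2.36, so this shift too leaned on WT-Veh RH5. With their mean level as a term in a fit over 12 libraries the change was -0.13 for *Acta2*, -0.06 for *Myh11*, -0.14 for *Vtn* and -0.38 for *Anpep*, and -1.23 for *Cnn1* and -0.32 for *Pdgfrb*, and the part of fibroblast RNA was not tested. The comparison shares its KO-Veh libraries with that of Nutlin-3 in KO mice, so opposite signs in both are not separate observations.

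In WT mice Nutlin-3 was followed by no call in the table (0% of genes; 717 had an unadjusted *P* under 0.05 in edgeR), and none of the 10 mural genes was among those 717. The smooth muscle genes stood at -0.36 ± 0.40 (*Acta2*), -0.14 ± 0.36 (*Myh11*), -0.44 ± 0.55 (*Cnn1*) and -0.59 ± 1.11 (*Tagln*) on the log2 scale. Without WT-Veh RH5 the first 3 turned to 0.22, 0.53 and 0.50, and without WT-Veh RH15 *Tagln* turned to 0.28. *Tagln* by single strands stood at -0.15 ± 0.39 with all libraries. The pericyte genes stood at 0.00 ± 0.06 (*Rgs5*), -0.13 ± 0.15 (*Pdgfrb*), 0.04 ± 0.15 (*Abcc9*), -0.26 ± 0.14 (*Vtn*), 0.34 ± 0.27 (*Higd1b*) and -0.72 ± 0.34 (*Anpep*). Without WT-Veh RH5 *Anpep* stood at -0.20 and *Vtn* at -0.09, *Higd1b* was at 0.10 without WT-Nut3 RH9, and *Pdgfrb* ran from -0.34 without WT-Nut3 RH1 to -0.03 without WT-Nut3 RH14. All 12 fibroblast markers had lower values in WT-Nut3, with a median of -0.67 log2 units and 2 at an unadjusted *P* under 0.05 in edgeR. Their mean log2 level was 2.43, 2.43 and 1.62 in WT-Nut3 RH1, RH9 and RH14. In WT-Veh it was 1.97 and 2.57 in RH2 and RH15 but 3.78 in RH5. All 12 choroid plexus markers had higher values, with a median of 4.84 and 12 at an unadjusted *P* under 0.05 in edgeR. Their mean log2 level was 5.68 in WT-Nut3 RH9, 0.04 in RH1 and 0.45 in RH14. It was -0.71 to -0.21 in WT-Veh, so the median of 4.84 leaned on RH9. With the fibroblast level as a term in a fit over 12 libraries *Anpep* stood at -0.19 and *Vtn* at -0.02, and the part of either tissue was not tested. No mural gene was above throughout in WT-Nut3, against 3.6% of all genes, or below throughout, against 3.92%.

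Whether Nutlin-3 acted differently in the 2 genotypes was tested by the interaction over all 12 libraries, in which no gene passed (0%; 942 genes, 4.17%, had an unadjusted *P* under 0.05 in edgeR). *Cnn1*, *Pdgfrb*, *Vtn* and *Anpep*, 4 of the 10, were among those 942. The interaction was 2.04 ± 0.49 log2 units for *Anpep* (unadjusted *P* = 0.00086) and 0.85 ± 0.25 for *Vtn*, with an adjusted *P* of 0.994 for both, and 1.18 ± 0.65 for *Acta2*, 1.58 ± 1.68 for *Tagln*, 0.88 ± 0.60 for *Myh11* and 2.12 ± 0.93 for *Cnn1*. It was 0.49 ± 0.20 for *Pdgfrb*, 0.37 ± 0.24 for *Abcc9*, 0.17 ± 0.11 for *Rgs5* and -0.56 ± 0.35 for *Higd1b*. *Tagln* by single strands had an interaction of 0.76 ± 0.59. Without WT-Veh RH5 and KO-Nut3 RH8 the interaction of *Acta2* was -0.03 and that of *Myh11* -0.31, so the sign of both rested on those 2 libraries, and it was 1.21 for *Anpep*, 0.44 for *Vtn*, 0.53 for *Cnn1* and 0.43 for *Pdgfrb*. With single libraries left out it came to 0.18 for *Abcc9* (without KO-Nut3 RH6), 0.10 for *Rgs5* (without KO-Veh RH16), -0.32 for *Higd1b* (without WT-Nut3 RH9) and 0.47 for *Tagln* (without KO-Nut3 RH8). Of the 12 fibroblast markers 11 had a positive interaction as well, with a median of 2.04 log2 units and 11 at an unadjusted *P* under 0.05. With their mean level as a term the interaction was 0.76 for *Anpep*, 0.17 for *Vtn*, 0.50 for *Cnn1* and 0.39 for *Pdgfrb*. It turned to -0.59 for *Acta2*, -0.69 for *Myh11* and -0.17 for *Tagln*. The part of fibroblast RNA in the interaction was not tested.

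The other comparisons held no mural gene past the threshold either. Between the Nutlin-3 groups 1 gene was called (0.00443%), and *Anpep* was the 1 mural gene with every KO-Nut3 library above every WT-Nut3 library, at 1.21 ± 0.27 log2 units (edgeR, adjusted *P* = 0.928), against 5.3% of all genes, while none was below throughout, against 5.35%. The value of *Anpep* was 0.90 without KO-Nut3 RH8. *Anpep* and *Vtn* were the 2 of the 10 with an unadjusted *P* under 0.05 in edgeR, against 4.87% of all genes. *Vtn* stood at 0.50 ± 0.20, and at 0.25 to 0.67 with each library left out in turn. All 12 fibroblast markers had higher values in KO-Nut3 as well, with a median of 1.35 log2 units and 11 at an unadjusted *P* under 0.05 in edgeR. With their mean level as a term *Anpep* stood at 0.38 and *Vtn* at 0.02. The part of fibroblast RNA there was not tested either. KO-Nut3 against WT-Veh likewise gave 1 call in the table (0.00443%), with mural log2 fold changes of -0.16 to 0.76. The genotypes over both treatments gave 1 call (0.00443%), with mural values of -0.65 to 0.59, and the treatments over both genotypes gave none (0%; 1647 genes had an unadjusted *P* under 0.05 in edgeR), with values of 0.06 to 0.46.

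Across the 12 libraries the contractile genes moved together. *Acta2* and *Myh11* had a Pearson *r* of 0.94 (permutation *P* = 2.50e-05, adjusted over 45 pairs 0.000787) and a Spearman's rho of 0.85 (permutation *P* = 0.000745, adjusted 0.0168), and without WT-Veh RH5 and KO-Nut3 RH8, the libraries farthest from the median of *Acta2*, *r* was 0.83. Within the libraries numbered up to RH8 *r* was 0.97 and within those from RH9 0.86 (n = 6 each), a division marked by the share of reads mapped to several places, 3.07% to 3.22% up to RH8 and 3.33% to 3.55% from RH9. *Myh11* and *Cnn1* had an *r* of 0.86 (permutation *P* = 0.000475, adjusted 0.00534) and a rho of 0.79, and *r* was 0.70 without the same libraries. *Acta2* and *Cnn1* had an *r* of 0.75 (permutation *P* = 0.00482, adjusted 0.0310), which was 0.43 without them. *Tagln* by single strands had an *r* with *Acta2* of 0.97 (permutation *P* = 1.5e-05, adjusted 0.000562) and a rho of 0.92 (permutation *P* = 8e-05, adjusted 0.0036), and 0.91 remained without those 2 libraries, whereas its counts over both strands gave 0.24.

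Among the 15 pericyte pairs, *Vtn* and *Anpep* were the 1 pair past the adjusted threshold in *r*, at 0.90 (permutation *P* = 0.00019, adjusted 0.00285), with a rho of 0.72 (permutation *P* = 0.0109, adjusted 0.0700). Its *r* was 0.71 without KO-Nut3 RH8 and WT-Veh RH5, 0.94 in the libraries up to RH8 and 0.56 from RH9. The median *r* was 0.34 over the 15 pericyte pairs, 0.50 over the 6 smooth muscle pairs and 0.42 over the 24 mixed pairs. This order did not hold without the 2 libraries farthest from the median of the first gene, where the medians were 0.24, 0.17 and 0.33. From RH9 they were 0.37, 0.28 and 0.31, again in another order. The smooth muscle pairs include those of *Tagln*, with 0 to 7 reads per library. By single strands its *r* was 0.97 with *Acta2*, 0.87 with *Myh11* and 0.66 with *Cnn1*. Without WT-Veh RH5 and KO-Nut3 RH8 these were 0.91, 0.64 and 0.23, so the smooth muscle medians depend on how *Tagln* was counted. *Rgs5* passed with a pair of contractile genes, with an *r* of 0.91 with *Cnn1* (permutation *P* = 3.50e-05, adjusted 0.000787; rho 0.90) and of 0.82 with *Myh11* (permutation *P* = 0.00102, adjusted 0.00922; rho 0.80), and both held at 0.87 and 0.70 without the 2 libraries farthest from the median of the first gene. With *Acta2* its *r* was 0.66 (permutation *P* = 0.0191, adjusted 0.0783; rho 0.57), and 0.33 without WT-Veh RH5 and KO-Nut3 RH8. With *Pdgfrb* it was 0.63 (permutation *P* = 0.0258, adjusted 0.0969; rho 0.73), and 0.63 without KO-Nut3 RH8 and KO-Veh RH16. *Acta2* had an *r* of 0.76 with both *Vtn* (permutation *P* = 0.00478, adjusted 0.0310; rho 0.66) and *Anpep* (permutation *P* = 0.00597, adjusted 0.0336; rho 0.74), which came to 0.30 and 0.32 without WT-Veh RH5 and KO-Nut3 RH8, so these relations rested on those libraries. In all, 8 of 45 pairs passed in *r* and 4 in rho, and 0 passed in *r* when deviations from the group means were permuted exactly within groups, although *Acta2* and *Myh11* kept an *r* of 0.94.

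**Figure D5:**
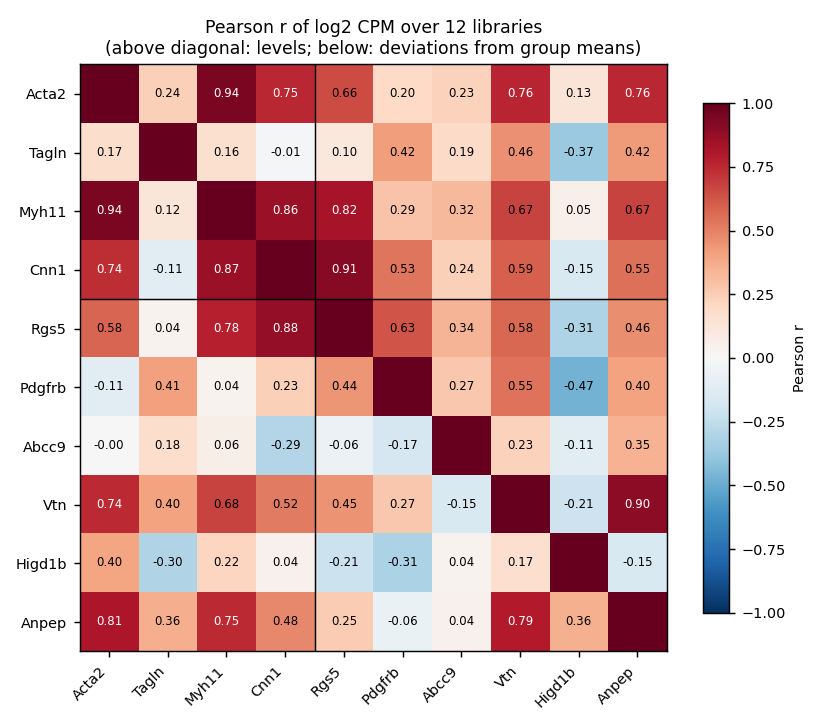
Pearson *r* of log2 CPM over 12 libraries for each pair of the 10 genes (rows and columns; colour and number give *r*, smooth muscle genes first), above the diagonal from levels and below it from deviations from group means. *Acta2*, *Myh11* and *Cnn1* have values of 0.75 to 0.94 with one another, *Rgs5* has 0.66 to 0.91 with them, and *Vtn* pairs with *Anpep* at 0.90.

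*Vtn* and *Anpep* also followed the fibroblast markers. With the mean log2 level of those 12 genes over the 12 libraries, *Vtn* had an *r* of 0.95 (permutation *P* = 3.5e-05, adjusted over 10 genes 0.00035) and a rho of 0.84 (adjusted 0.0117), and *r* was 0.85 without WT-Veh RH5 and KO-Nut3 RH8. *Anpep* had an *r* of 0.92 (permutation *P* = 0.000135, adjusted 0.000675) and a rho of 0.81 (adjusted 0.0117), and 0.76 without them. For *Vtn* the value was 0.94 up to RH8 and 0.93 from RH9, and for *Anpep* 0.98 and 0.51. *Acta2* (0.80, permutation *P* = 0.00338, adjusted 0.0113, rho 0.76) and *Myh11* (0.73, permutation *P* = 0.00785, adjusted 0.0196, rho 0.59) also passed in *r*, but their values were 0.37 and 0.20 without those libraries and so rested on them. *Rgs5* (0.55), *Pdgfrb* (0.44), *Abcc9* (0.27) and *Higd1b* (-0.14) did not pass. The most abundant fibroblast marker, *Dcn*, was at 58.3 CPM in WT-Veh RH5 and 56.5 in KO-Nut3 RH8, but also at 56.8 and 56.6 in KO-Veh RH10 and RH16, and lowest in KO-Nut3 RH6 at 20.4 CPM. *Aldh1a2*, a retinoic acid synthesis gene of meninges, reached 21.7 CPM (KO-Nut3 RH8), 14.9 (WT-Veh RH5) and 10.1 (KO-Nut3 RH6), with at most 4.06 CPM elsewhere. No fibroblast marker was at 0 in any library. Between KO-Nut3 and KO-Veh, 11 of the 12 markers had higher values, with a median log2 fold change of 1.37 and *Slc47a1* the largest at 2.95 ± 0.83, and none passed the threshold in edgeR, although 11 had an unadjusted *P* under 0.05. With the fibroblast level as a term in the fit over 12 libraries, the change between these groups was 0.57 for *Anpep*, 0.15 for *Vtn* and 0.29 for *Pdgfrb*, and it turned to -0.25 for *Acta2* and -0.17 for *Myh11*. The part of fibroblast RNA in these values was not tested.

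Choroid plexus markers were high in libraries that only partly matched those of the mural genes. In KO-Nut3 against KO-Veh all 12 had higher values, and 5 of them (*Ttr*, *Folr1*, *Kcne2*, *Slc4a5*, *Tmem72*) passed the threshold, with *Ttr* at 8.05 ± 0.99 log2 units (edgeR, adjusted *P* = 0.0131). In KO-Nut3 the library with the least *Ttr*, RH8, had the most *Acta2*, *Myh11*, *Vtn* and *Anpep*, whereas WT-Nut3 RH9 had 4215 CPM of *Ttr* and also the most *Acta2* and *Myh11* of its group. The part of choroid plexus tissue in the mural values was not tested.

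Genes outside the list were also ranked by the nearness of their pattern. The highest *r* with the mean of the 4 smooth muscle genes over 12 libraries, among 15338 genes of at least 1 CPM, belonged to *Mylk* (0.92), the myosin light chain kinase, *Itpr3* (0.89), an IP3 receptor, *Osr1* (0.89), *Rbpms* (0.88) and *Msn* (0.87), and 0.339% of these genes exceeded 0.8. With *Tagln*, at 0 to 7 reads, left out of that mean, the genes were *Mylk* (0.92), *Tpm2* (0.89), *Osr1* (0.88), *Lima1* (0.88) and *Pear1* (0.87), so that *Itpr3*, *Rbpms* and *Msn* were no longer among the 5, and 0.196% exceeded 0.8. With the mean of the 6 pericyte genes the highest *r* belonged to *Mrc2* (0.96), a collagen receptor, *Slc6a20a* (0.95), an amino acid transporter, *Cavin1* (0.95), a protein of caveolae, *Lamb2* (0.95), a laminin of basement membranes, and *Ogn* (0.94), one of the fibroblast markers, and 1.11% exceeded 0.8. Leaving out WT-Veh RH5 and KO-Nut3 RH8 gave 0.68, 0.84, 0.59, 0.66 and 0.62 for the 5 genes nearest to the 4 smooth muscle genes and 0.92, 0.91, 0.91, 0.92 and 0.89 for those nearest to the pericyte genes. *Mylk* was at 23.7 and 21.6 CPM in KO-Nut3 RH8 and WT-Veh RH5 and between 12.5 and 15.8 CPM in the other libraries. *Slc6a20a* reached 29.0 CPM (KO-Nut3 RH8), 22.3 (WT-Veh RH5) and 18.9 (KO-Nut3 RH6), with at most 12.4 CPM elsewhere.

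Other genes of the same cells and of their control were given by lists. Of 20 further smooth muscle genes 18 could be tested, and none passed in any comparison in edgeR. In KO-Nut3 against KO-Veh 14 of the 18 had higher values, with a median of 0.30 log2 units. An unadjusted *P* under 0.05 in edgeR was found for 4 of the 18, against 7.6% of all genes. The mean log2 level of the 18 genes was 2.18, 2.53 and 2.02 in KO-Nut3 RH6, RH8 and RH13, thus highest in RH8. It was 1.78 to 2.08 in KO-Veh. The most abundant, *Tpm1*, a tropomyosin also made by other cells, stood at -0.06 ± 0.07, and the largest changes among genes of at least 1 CPM were those of *Sncg* at 1.19 ± 0.41 and *Casq2* at 0.79 ± 0.35. *Sncg*, which is also a gene of neurons, was at 8.21 CPM in KO-Nut3 RH6 alone and at 1.44 to 3.46 CPM in all other libraries, so it did not share the libraries of *Acta2*. Among 13 further pericyte genes, 12 had higher values (median 0.35 log2 units) and none passed. Only 1 of the 13 had an unadjusted *P* under 0.05 in edgeR, near the 7.6% of all genes. The most abundant, *Cspg4*, which encodes the NG2 proteoglycan and is shared with oligodendrocyte precursors, stood at -0.03 ± 0.10. *Ifitm1* at 0.92 ± 0.32 and *Tbx18*, a transcription factor of mural cells, at 0.76 ± 0.37 were the largest at 1 CPM or more. *Tbx18* was at 3.16, 4.24 and 1.65 CPM in KO-Nut3 RH6, RH8 and RH13. Its KO-Veh libraries lay at 1.37 to 2.48 CPM, so the groups overlapped. In KO-Veh against WT-Veh 3 of the 18 and 1 of the 13 had higher values, with medians of -0.13 and -0.30.

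Signals that recruit mural cells from the endothelium gave no call either. *Pdgfb*, the ligand of *Pdgfrb*, stood at -0.07 ± 0.12 between KO-Nut3 and KO-Veh. *Tgfbr2*, a receptor for TGF-beta, came nearest to the threshold at 0.58 ± 0.09 log2 units (edgeR, adjusted *P* = 0.0545). It was at 25.9, 24.6 and 25.8 CPM in RH6, RH8 and RH13 of KO-Nut3 and at 16.1, 16.2 and 18.6 CPM in RH7, RH10 and RH16 of KO-Veh, with all WT libraries between 19.5 and 22.9 CPM, so that the KO groups did not overlap and RH8 did not stand apart. *Angpt2*, an angiopoietin that loosens mural contact, stood at 1.21 ± 0.31 (edgeR, adjusted *P* = 0.251), and *S1pr1*, the most abundant of the 15, at -0.18 ± 0.12. Of these 15 genes 11 had higher values, with a median of 0.07. Of 15 genes that control contraction 2 had higher values (median -0.10), and none passed. The most abundant, *Itpr1*, which is also strongly expressed in neurons, stood at -0.03 ± 0.08, and *Adra1a*, an adrenergic receptor, at -0.25 ± 0.15 and *Ppp1r14a*, an inhibitor of myosin phosphatase, at 0.20 ± 0.13 had the largest changes at 1 CPM or more, while *Agtr1a*, an angiotensin receptor at 0.103 to 0.776 CPM, stood at 1.17 ± 0.73. The summed level of the 15 contraction genes was 1458 CPM in KO-Nut3 RH6 and 1680 and 1710 CPM in RH8 and RH13. It was 1715 to 1727 CPM in KO-Veh. RH6 was also the library lowest in the hippocampal neuron markers, and the part of neuronal RNA in these values was not tested.

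Other vascular markers were looked at beside the mural ones. Of 16 endothelial genes 13 had higher values in KO-Nut3 against KO-Veh, with a median of 0.24 log2 units and *Kdr*, a VEGF receptor, largest at 0.49 ± 0.12. An unadjusted *P* under 0.05 was found for 8 of the 16, against 7.6% of all genes, yet none passed in edgeR. The summed level of the endothelial genes ranged from 426 CPM in KO-Veh RH10 to 578 CPM in KO-Nut3 RH8. *Slc2a1*, the glucose transporter of the barrier and the most abundant, stood at 0.11 ± 0.10. In KO-Veh against WT-Veh 4 of the 16 had higher values, with a median of -0.11 log2 units. There 6 had an unadjusted *P* under 0.05 in edgeR, against 7.2% of all genes. The summed level of the 6 pericyte genes ranged from 162 to 249 CPM and that of the 4 smooth muscle genes from 12.2 to 50.3 CPM. Of 5 genes of red blood cells, led by *Hbb-bs*, none passed in any comparison, and their sum was 42.2 to 84.7 CPM. Of the hippocampal neuron markers, *Wfs1* stood lower in KO-Veh, at -0.44 ± 0.06 against WT-Veh (edgeR, adjusted *P* = 0.0478), and the summed level of the 6 was lowest in KO-Nut3 RH6, at 512 CPM, against 675 to 863 CPM elsewhere.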

How the data were processed

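RNA-seq counts of hippocampus from 12 mice were used. The authors mapped the reads to mm10 with STAR (version not given in the sources used here) and deposited raw counts of reads per gene and library, with no pooling or normalization. The counts over both strands were used, and the single-strand counts only as an alternative. A whole-series table of 31412 genes equals the libraries and was not used. Labels name a single-read instrument and the methods paired-end runs, and the counts do not show which applies. Total reads were 21772933 to 25498894 per library, of which 77.4% to 78.8% were on genes, and rows that name no gene were left out.

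Genes with more than 20 counts in total were fitted with edgeR 4.0.16 (R 4.3.3), TMM factors and the two-sided quasi-likelihood test, pairs of groups on 6 libraries, and interaction and main effects on 12, with Benjamini-Hochberg adjustment over all genes and a threshold of 0.05. The study's own tool, DESeq2 (1.42.0 here), was an alternative. The SE is the log2 fold change divided by the square root of *F*. Log2 levels have a prior count of 1. Correlations used 100000 permutations, two-sided, over 45 pairs, and the 1296 exact permutations within groups. Nothing says that libraries came from separate litters, and *P*-values measure only the spread between them. Levels per kb use exon bases not shared with other genes.

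The 10 genes, the lists and the tests were chosen with earlier results of these data known. From the lists were named genes past the threshold, the most abundant gene and, in related lists, the 2 largest changes of at least 1 CPM. Other genes (*Myl9*, *Srf*, *Myocd*, *Agtr1a*, *Pdgfb*, *Pcsk7*, *Tpm2*, *Lima1*, *Pear1*) were named after their values were seen, and so was the looser CArG pattern. Further alternatives were DESeq2 size factors, the filterByExpr filter, no filter, all 12 libraries in one fit, the number block (up to RH8, from RH9), a fibroblast term, other priors, and each library left out. The fit and the correlations were tested on simulated data.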

Additional observations from a re-analysis of the deposited data

How the results depend on the processing

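No mural gene passed in edgeR, and this held in all comparisons with DESeq2 size factors, filterByExpr, the number block, the fibroblast term, all 12 libraries, single-strand counts and each library left out, although filterByExpr kept 8 to 9 of the 10 genes in a comparison, without *Tagln* in any and without *Cnn1* in those of KO-Veh with KO-Nut3 and with WT-Veh. DESeq2 called 2 genes in KO-Nut3 against KO-Veh. Without a filter on low counts 3 passed there, 3 in KO-Veh against WT-Veh, 1 in WT-Nut3 against WT-Veh, 1 in KO-Nut3 against WT-Nut3 and 4 in the interaction, among *Acta2*, *Myh11*, *Vtn* and *Anpep*, and the cause was not tested. Without WT-Nut3 RH9, KO-Nut3 RH6 and KO-Nut3 RH13 (chosen after seeing the data) 4 passed in KO-Nut3 against KO-Veh and 4 in KO-Nut3 against WT-Nut3, in designs with a lone KO-Nut3 library. *Abcc9* then turned in KO-Nut3 against WT-Nut3 (-0.21), as it did with the number block (-0.0030). The signs given here cover the 4 pairs of groups named and the interaction. With the fibroblast term, signs turned in KO-Nut3 against KO-Veh for *Acta2* (-0.25), *Tagln* (-0.21) and *Myh11* (-0.17), in KO-Veh against WT-Veh for *Tagln* (0.24), in WT-Nut3 against WT-Veh for *Acta2* (0.33), *Myh11* (0.52) and *Cnn1* (0.23), in KO-Nut3 against WT-Nut3 for *Acta2* (-0.71), *Myh11* (-0.75), *Cnn1* (-0.73) and *Rgs5* (-0.062), and in the interaction for *Acta2* (-0.59), *Tagln* (-0.17) and *Myh11* (-0.69). Without WT-Veh RH5 and KO-Nut3 RH8 (also chosen after seeing the data) the interactions of *Acta2* (-0.032) and *Myh11* (-0.31) turned, and *Rgs5* in WT-Nut3 against WT-Veh was -0.000845 with all 12 libraries in one fit. Of 45 pairs, 8 passed in *r*, 0 as deviations from group means, 12 with single-strand counts, and 4 to 10 with each library left out, the fewest without KO-Nut3 RH8 (4), WT-Veh RH5 and KO-Veh RH10 (5 each). With each library left out in turn, signs turned for *Tagln* in KO-Nut3 against KO-Veh (-0.13 to 1.61), for *Tagln* (-0.84 to 0.65) and *Myh11* (-0.96 to 0.041) in KO-Veh against WT-Veh, and in WT-Nut3 against WT-Veh for *Acta2* (-0.84 to 0.22), *Tagln* (-1.78 to 0.28), *Myh11* (-0.44 to 0.53), *Cnn1* (-0.86 to 0.50), *Rgs5* (-0.045 to 0.052) and *Abcc9* (-0.079 to 0.17), and in KO-Nut3 against WT-Nut3 for *Acta2* (-0.19 to 0.92), *Myh11* (-0.27 to 0.47), *Cnn1* (-0.36 to 0.66), *Rgs5* (-0.029 to 0.096) and *Abcc9* (-0.11 to 0.16). No paired analysis was possible because the groups share no animal number. Depth limits *Cnn1* and *Higd1b*, with means of 12.3 and 36.6 reads.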
